A study of Mus musculus with 8 samples.

Results

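The genes described here encode the fibrinogen chains (Fga, Fgb, Fgg), the clotting factors prothrombin (F2), V (F5), VII (F7), IX (F9) and X (F10), protein C (Proc) and plasminogen (Plg). They are 10 of the 21887 protein-coding genes of the annotation, and were chosen by name, with earlier results of these data known. Peaks were taken where they overlapped the gene or its flanks of 10 kb, here called the locus. The data are 5 ATAC-seq peak lists from YFP-positive liver cells of mice with a triple knockout of the Rb gene family, sorted by flow cytometry, where YFP reports Cre recombination of the floxed alleles. There are 8 labelled samples in 5 groups, namely EpCAM-high CK19 (2 samples), EpCAM-high Sox9 (1), Thy1+ CK19 (2), Thy1+ Sox9 (1) and EpCAM-negative (2), from liver or from macroscopic lesions. No label gives an age, a Cre driver, a treatment other than none, or a meaning for CK19 and Sox9 in these names, and all groups share the sort for YFP. The lists carry the names Tumor Sox9, Prog-like Sox9, Prog-like CK19, EpCAM-high Sox9 and EpCAM-high CK19, and the first 3 names are those of no labelled group, so these lists were tied to none. Each list stands for 1 condition without replicates, so no difference below has a replicate error or a test, and read depth is unknown.

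Clotting ends when thrombin, made from prothrombin, cuts soluble fibrinogen into fibrin. Factor VII starts the cascade with tissue factor, factors IX and X carry it forward, and factor V is the cofactor with which active factor X makes thrombin. Protein C, once active, cuts factors V and VIII and so limits clotting, and plasmin, made from plasminogen, dissolves fibrin. Hepatocytes make most of these plasma proteins, and the genes are used as markers of hepatocyte identity, with fibrinogen also rising in the acute-phase response to interleukin 6. An ATAC-seq peak marks DNA that a transposase could reach, and it does not measure transcription.

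Tumor Sox9 was the list with a peak at the start of all 10 genes. A gene-start peak is a peak within 1000 bp of the annotated start, or of either gene end for Plg and Proc, whose strand was not given in the table used. Tumor Sox9 held such a peak at 10 of 10 genes, while 52.0% of all protein-coding genes had one in that list. EpCAM-high Sox9 held one at 4 (all genes 59.0%), Prog-like Sox9 at 3 (54.6%), and EpCAM-high CK19 and Prog-like CK19 at 2 each (59.0% and 57.6%). The 4 other lists thus lay below their all-gene share and Tumor Sox9 above it, although Tumor Sox9 was the shortest list, with 39644 peaks. Prog-like Sox9 held 67855, EpCAM-high Sox9 59454, Prog-like CK19 71375 and EpCAM-high CK19 56932. With every list reduced to its 39644 peaks of highest −log10 p, Tumor Sox9 kept 10 (52.0% of all genes). The counts were then 3 in EpCAM-high Sox9 (52.4%) and 2 for its CK19 counterpart (54.4%), and the Prog-like lists had 1 (Sox9, 46.3%) and 2 (CK19, 48.3%).

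**Figure D1:**
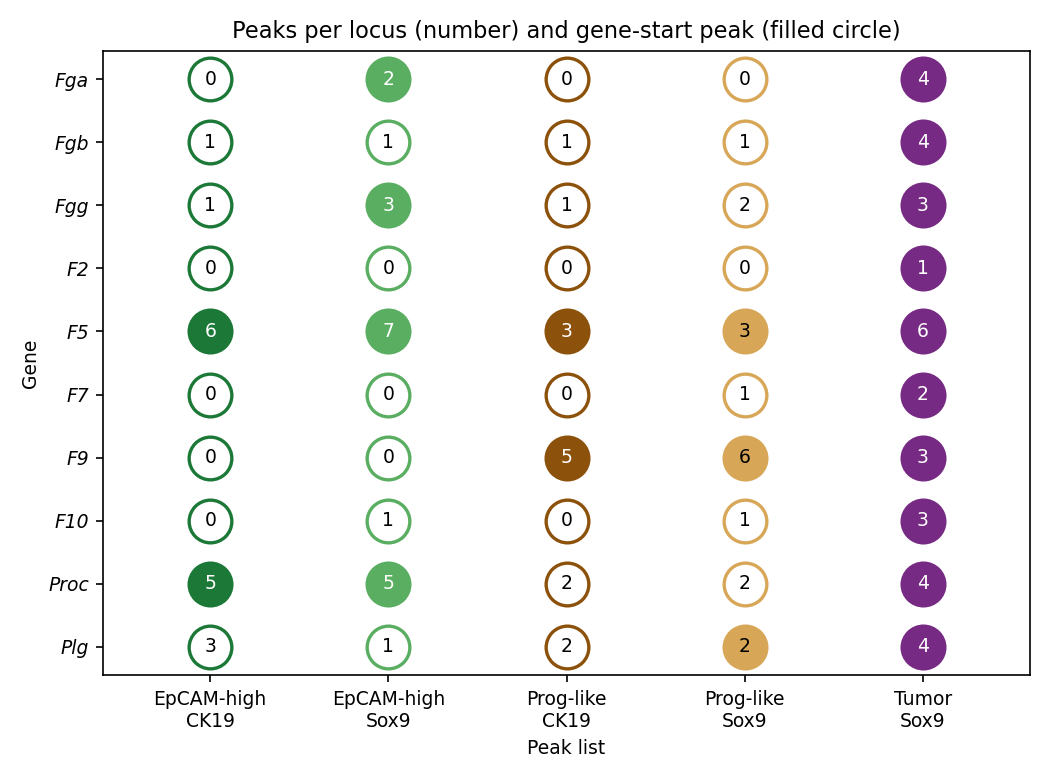
Each circle is 1 gene (rows) in 1 peak list (columns), the number is the count of peaks in the gene and its 10 kb flanks, and a filled circle marks a gene-start peak. All 10 circles of Tumor Sox9 are filled, against 2 to 4 in the other lists.

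Tumor Sox9 had a gene-start peak missing from EpCAM-high CK19 at 8 of the 10 genes (2.40% of all genes) and one missing from EpCAM-high Sox9 at 6 (2.18%). Against the Prog-like lists the numbers were 8 (CK19, 3.76%) and 7 (Sox9, 5.14%). The reverse, a gene-start peak missing from Tumor Sox9, occurred at 0 of the 10 genes in each comparison, where it occurred at 9.34%, 9.20%, 9.35% and 7.76% of all genes in the same order. Fgb, F2, F7 and F10 had a gene-start peak in Tumor Sox9 alone of the 5 lists, as did 1.02% of all genes. At equal list length Plg joined them, for 5 genes (2.35% of all genes). F5 was the gene with a gene-start peak in all 5 lists, a pattern of 45.5% of all genes.

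Over whole loci Tumor Sox9 was again highest, with smaller gaps to the other lists. At least 1 locus peak was present for 10 genes in Tumor Sox9 (all genes 68.8%), 8 in Prog-like Sox9 (72.4%), 7 in EpCAM-high Sox9 (74.6%), 6 in Prog-like CK19 (74.5%) and 5 in EpCAM-high CK19 (75.8%). The median gene of the 10 held 3.5, 1.5, 1.0, 1.0 and 0.5 peaks in these lists, against an all-gene median of 1.0 in Tumor Sox9 and 2.0 in each of the others. More locus peaks in Tumor Sox9 than in each of the other lists were found at 6 genes (Fga, Fgb, F2, F7, F10 and Plg), a pattern of 4.66% of all genes. At equal list length it was found at 9, every gene but F9, and at 12.7% of all genes.

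The start peaks of these genes in Tumor Sox9 ranked mostly below those of the typical gene with such a peak. The deposited −log10 p of a peak was ranked in its own list, and the strongest gene-start peak of each gene was taken. In Tumor Sox9 the 10 genes ran from percentile 36.0 (F7) to 83.5 (F10), with a median of 71.7. The median over the 11387 genes with a gene-start peak in that list was 75.8, and 7 of the 10 genes lay below it. In EpCAM-high Sox9 the 4 genes ran from 28.4 (F5) to 80.0 (Proc), against an all-gene median of 78.8. In Prog-like Sox9 the 3 genes stood at 12.4 (F9), 23.2 (Plg) and 71.5 (F5), against 80.4.

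The fibrinogen genes lie side by side on chromosome 3 (mm10, the build of the lists), Fgg at 83007724 to 83015056 on the plus strand, Fga at 83026153 to 83033627 on the plus strand and Fgb at 83042246 to 83049863 on the minus strand. Fga encodes the alpha, Fgb the beta and Fgg the gamma chain of fibrinogen. The 200 bases before each annotated start are shown because these stretches were covered, wholly or in part, by peaks in Tumor Sox9, in EpCAM-high Sox9 for Fga and Fgg, and in no other list. They are RefSeq sequences (GRCm38.p6, which is mm10), 5′ to 3′ on the gene's strand. Capitals mark matches to the motifs described after them.
Fga, chr3:83025953-83026152, plus strand: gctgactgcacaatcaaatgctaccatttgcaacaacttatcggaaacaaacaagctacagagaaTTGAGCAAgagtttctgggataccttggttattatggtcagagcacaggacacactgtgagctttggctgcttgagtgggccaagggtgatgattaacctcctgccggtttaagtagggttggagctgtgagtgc
Fgb, chr3:83049864-83050063, minus strand: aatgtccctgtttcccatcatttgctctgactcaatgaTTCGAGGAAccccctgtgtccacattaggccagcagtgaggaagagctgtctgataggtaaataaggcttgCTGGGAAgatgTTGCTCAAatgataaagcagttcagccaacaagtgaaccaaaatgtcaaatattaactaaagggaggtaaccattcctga
Fgg, chr3:83007524-83007723, plus strand: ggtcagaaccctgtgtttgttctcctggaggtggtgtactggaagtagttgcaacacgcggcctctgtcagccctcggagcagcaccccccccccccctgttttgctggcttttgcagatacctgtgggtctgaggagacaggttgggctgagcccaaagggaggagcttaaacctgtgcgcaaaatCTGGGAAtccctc

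Fga held no peak in EpCAM-high CK19, Prog-like CK19 or Prog-like Sox9, 2 in EpCAM-high Sox9 and 4 in Tumor Sox9. In the lists without one, the nearest peak lay 23659 bp (Prog-like Sox9), 26751 bp (EpCAM-high CK19) and 26866 bp (Prog-like CK19) from the Fga start. The start peaks of EpCAM-high Sox9 (83025705 to 83026547) and Tumor Sox9 (83025633 to 83026564) covered nearly the same bases. Their summits, the points of highest signal, lay 87 bp before and 11 bp after the start. In the authors' values these peaks had fold enrichments of 8.0 and 5.06, at percentiles 57.4 and 72.6 of their own lists.

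A further peak between Fgg and Fga was also held by EpCAM-high Sox9 and Tumor Sox9 alone. It spanned 83020263 to 83020768 in EpCAM-high Sox9 and 83020122 to 83020874 in Tumor Sox9, with summits 5621 and 5653 bp before the Fga start. It was the strongest peak of the cluster in Tumor Sox9 (percentile 81.5), and the Plrg1 peak apart it was the strongest in EpCAM-high Sox9 (percentile 86.1). Fga and Fgg share this peak, since it lies within 10 kb of both. No annotated gene overlapped it.

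Fgg held 3 peaks in Tumor Sox9, 3 in EpCAM-high Sox9, 2 in Prog-like Sox9 and 1 in each CK19 list. Its start was covered in EpCAM-high Sox9 (83007448 to 83007815, summit 59 bp before the start) and in Tumor Sox9 (83007640 to 83007906, summit 79 bp after it). The annotated long non-coding RNA gene Gm30097 overlaps these start peaks. The other lists came no closer to the start than 5230 bp (Prog-like Sox9), 8322 bp (EpCAM-high CK19) and 8437 bp (Prog-like CK19). A peak with its summit 8489 to 8493 bp before the start, also overlapped by Gm30097, was held by these 3 lists and EpCAM-high Sox9 but not by Tumor Sox9. It ranked from percentile 29.5 (EpCAM-high Sox9) to 61.1 (EpCAM-high CK19). The Fgg locus was thus not empty in any full list, but at equal length Prog-like CK19 held 0 peaks there. The gene-start pattern of Fga and Fgg, EpCAM-high Sox9 and Tumor Sox9 alone, was that of 0.324% of all genes.

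Fgb differed from its neighbours, because its start was covered in Tumor Sox9 alone. That peak spanned 83049724 to 83050256, with the summit 140 bp before the start, a fold enrichment of 5.30 and percentile 76.5. In the 4 other lists the nearest peak lay 5013 to 5207 bp from the Fgb start. That peak overlapped between the lists and lay at an end of the neighbouring gene Plrg1, which encodes a splicing factor, and Tumor Sox9 held it too. Its summits lay within 87 bp of each other in the 5 lists. This peak ranked at percentile 93.3 to 98.1 in the EpCAM-high and Prog-like lists and at 65.1 in Tumor Sox9. Tumor Sox9 also held 2 weak peaks that no other list held, at the end of the Fga gene body (83032988 to 83033326, percentile 22.2) and between Fga and Fgb (83039625 to 83039999, percentile 23.4). Within Fgg it held another (83009864 to 83010200, percentile 9.36).

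**Figure D2:**
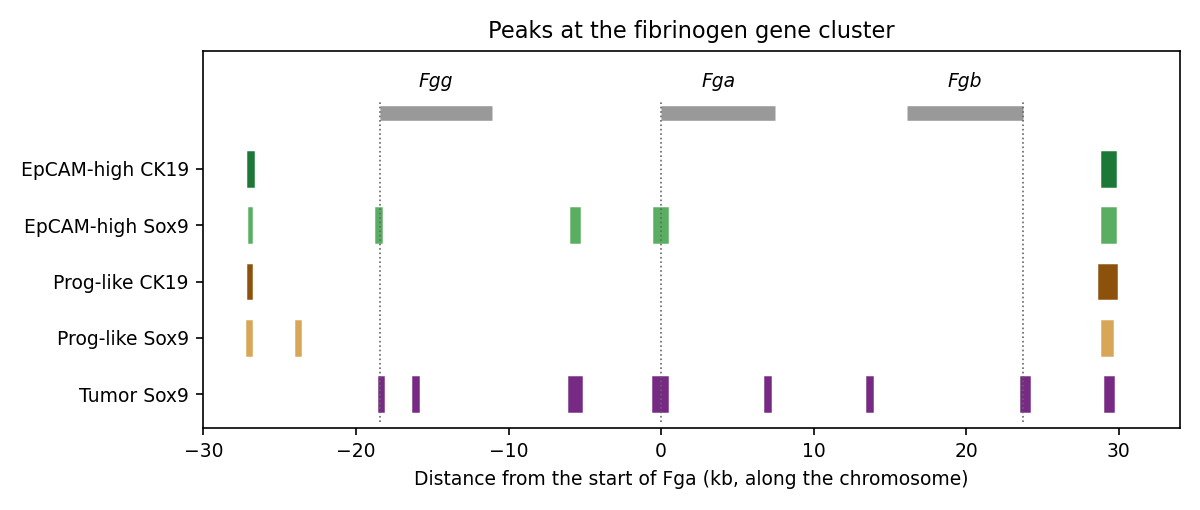
Peaks of the 5 lists (coloured boxes) along the fibrinogen cluster, with gene bodies in grey and annotated gene starts as dotted lines; the x axis is the distance from the Fga start in kb. Peaks at the starts of Fgg and Fga and between these genes appear in EpCAM-high Sox9 and Tumor Sox9, and the Fgb start has a peak in Tumor Sox9 alone, while the rightmost peak, at Plrg1, is in all 5 lists.

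Motifs were searched on both strands in windows of 250 bases before to 50 after the start, available for 8 of the 10 genes (all but Plg and Proc). The motifs were HNF4 (CAAAGTCCA), FOXA (TGTTTAC), C/EBP (TTGCNNAA), STAT (TTCNNNGAA), the interleukin 6 response element (CTGGGAA) and the TATA box (TATAAA). HNF4, FOXA and C/EBP proteins are transcription factors of hepatocytes, and STAT factors carry the interleukin 6 signal. The shares given next are of the 32851 promoter windows of the table. Fga held C/EBP (135 to 128 bases before, reverse strand) and STAT (234 to 226 bases before, outside the printed bases). Fgb held STAT (162 to 154 bases before), the interleukin 6 element (91 to 85) and C/EBP (80 to 73). Fgg held the interleukin 6 element 13 to 7 bases before its start.

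Over the 8 windows C/EBP was found in 3 (Fga, Fgb and F9; 10.8% of all windows), STAT in the same 3 genes (8.30%) and the interleukin 6 element in 3 (Fgb, Fgg and F9; 11.1%). HNF4 (0.475% of all windows), FOXA (3.65%) and TATAAA (13.6%) had no match in any of the 8, which says only that these letters are not in these windows. F2, F5, F7 and F10 held none of the 6 motifs. These matches are descriptions of sequence, and binding was not measured.

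The promoter windows themselves were under a peak at 8 of 8 genes in Tumor Sox9 (36.5% of all 32851 windows). They were under a peak at 3 in EpCAM-high Sox9 (Fga, Fgg and F5; 41.0%), 2 in Prog-like Sox9 (F5 and F9; 38.2%), 1 in EpCAM-high CK19 (F5; 41.3%) and 1 in Prog-like CK19 (F9; 40.4%). Tumor Sox9 peaks covered all 300 bases of the window at Fga, Fgb, F2, F5 and F7, 274 at F9, 261 at F10 and 134 at Fgg. Prog-like CK19 covered 102 bases of the F9 window, while Prog-like Sox9 covered 21 bases there and 37 at F5.

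Prothrombin's gene F2 (chromosome 2, 91612397 to 91636457, minus strand) held 1 peak in Tumor Sox9 and 0 in each of the other lists. The peak spanned 91635816 to 91637271 and covered the start, with its summit 641 bp before it, at percentile 65.4. In the other lists the nearest peak to the start lay 13128 bp (Prog-like CK19), 13282 bp (EpCAM-high Sox9), 13316 bp (EpCAM-high CK19) and 13348 bp (Prog-like Sox9) away, outside the locus. F2 was thus the member with the fewest peaks, and the presence of any peak separated Tumor Sox9 from the rest. The 200 bases before its start are shown as an example of a start covered in Tumor Sox9 alone, with no motif match and so no capitals.
F2, chr2:91636458-91636657, minus strand: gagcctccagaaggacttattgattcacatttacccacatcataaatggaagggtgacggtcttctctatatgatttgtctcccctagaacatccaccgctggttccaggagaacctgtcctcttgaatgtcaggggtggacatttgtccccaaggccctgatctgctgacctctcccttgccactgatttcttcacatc

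F7 and F10, the genes of factors VII and X, are neighbours on the plus strand of chromosome 8 (F7 at 13025506 to 13035809, F10 at 13037308 to 13056676). F7 held 2 peaks in Tumor Sox9, 1 in Prog-like Sox9 and 0 in the other 3 lists. F10 held 3 in Tumor Sox9, 1 in EpCAM-high Sox9, 1 in Prog-like Sox9 and 0 in both CK19 lists. The windows of these genes overlap, so the F10 start peak and the Prog-like Sox9 peak are counted for both.

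Both starts were covered in Tumor Sox9 alone. At F10 the peak spanned 13037097 to 13038062, with the summit 447 bp inside the gene, a fold enrichment of 9.12 and percentile 83.5, the highest rank of a start peak among the 10 genes in that list. At F7 it spanned 13025632 to 13026369, with the summit 43 bp after the annotated transcript start at 13026034, a fold enrichment of 5.25 and percentile 36.0, the lowest such rank. The peak of Prog-like Sox9 (13031870 to 13032043, within F7) ranked at percentile 1.29 of its list and that of EpCAM-high Sox9 (13063290 to 13063451) at 7.31. Neither was kept at equal list length. Tumor Sox9 had 2 more peaks beyond the end of F10, 1 of them (13060622 to 13061030) at the start of the neighbouring gene Proz, which encodes protein Z, a plasma cofactor that limits clotting.

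F9 (chromosome X, 59999329 to 60030760, plus strand) encodes the protease missing in haemophilia B, and was the gene with the most peaks in the Prog-like lists. It held 6 peaks in Prog-like Sox9, 5 in Prog-like CK19, 3 in Tumor Sox9 and 0 in both EpCAM-high lists, whose nearest peaks lay 321887 bp (CK19) and 404146 bp (Sox9) from the start. The bases before its annotated start at 59999464 are shown because the Tumor Sox9 peak covered all of them and the Prog-like CK19 peak only the last ones, while the Prog-like Sox9 peak began 29 bp after the start. Capitals mark C/EBP (24 to 17 bases before) and the overlapping STAT (82 to 74) and reverse-strand interleukin 6 (82 to 76) matches.
F9, chrX:59999264-59999463, plus strand: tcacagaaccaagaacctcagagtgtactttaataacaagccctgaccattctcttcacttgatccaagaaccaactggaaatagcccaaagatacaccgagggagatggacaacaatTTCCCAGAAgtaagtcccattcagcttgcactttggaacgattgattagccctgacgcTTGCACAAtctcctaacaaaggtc

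In Tumor Sox9 the start peak of F9 spanned 59999240 to 59999675 with the summit 88 bp before the start, inside the printed bases. The Prog-like start peaks spanned 59999412 to 60000466 (CK19) and 59999493 to 59999758 (Sox9), with summits 284 and 231 bp after the start. Tumor Sox9 had another peak just inside (60000245 to 60000471), which overlapped the long start peak of Prog-like CK19. The Prog-like start peaks ranked at percentiles 44.7 and 12.4 of their lists, and the Prog-like Sox9 one was lost at equal length. A gene-start peak in both Prog-like lists and Tumor Sox9 without the EpCAM-high lists was found at 0.379% of all genes.

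The strongest F9 peaks of the Prog-like lists lay inside the gene. The leading one had its summit at 60001693 in both lists, 2229 bp after the start, at percentile 90.5 (CK19) and 94.1 (Sox9). The next had summits at 60021803 and 60021798, 22339 and 22334 bp after the start, at percentiles 79.0 and 75.6. Those at 13852 and 13832 bp and at 27397 and 27398 bp ranked lower, from 26.1 to 49.6. Tumor Sox9 held none of these 4 regions, and its own inner peak (60014528 to 60014794, percentile 36.0) overlapped none of them. F9 was the gene at which the Prog-like lists had more locus peaks than Tumor Sox9, and at equal length each of these 3 lists held 3. Beside it, all 12 of the macrophage markers examined had a gene-start peak in both Prog-like lists (all genes 57.6% for CK19 and 54.6% for Sox9). Of these markers, 2 had one in Tumor Sox9 (all genes 52.0%), 3 in EpCAM-high Sox9 and 2 in EpCAM-high CK19 (all genes 59.0% in each). The summed locus peaks of the 12 were 86 and 85 in the CK19 and Sox9 Prog-like lists, against 8 in Tumor Sox9, 11 in EpCAM-high Sox9 and 6 in EpCAM-high CK19. No macrophage marker was at 0 in a Prog-like list. The part of such cells in the F9 peaks was not tested.

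**Figure D3:**
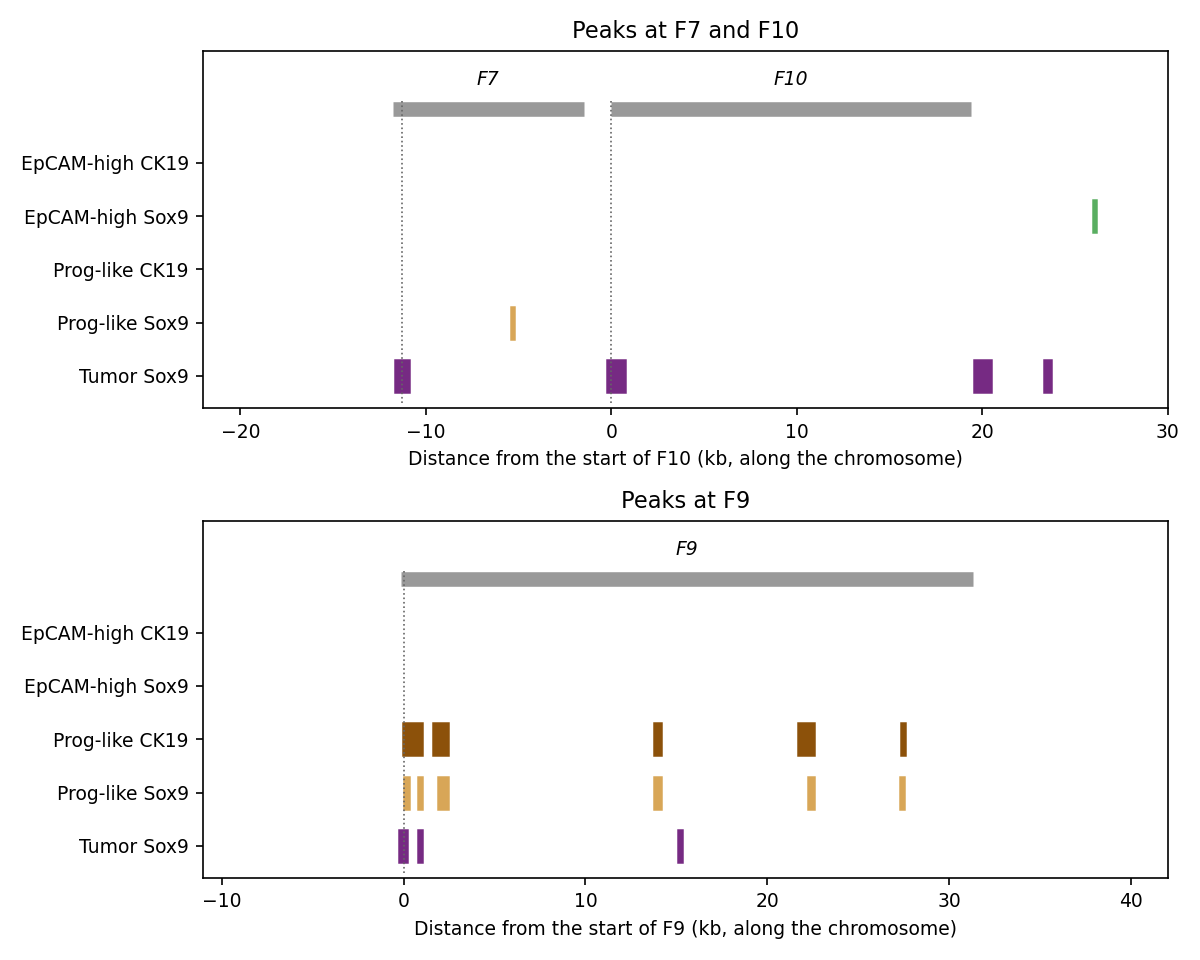
Peaks of the 5 lists (coloured boxes) at F7 and F10 (top) and F9 (bottom), with gene bodies in grey and annotated starts as dotted lines; the x axes are distances in kb from the starts of F10 and F9. The starts of F7 and F10 are covered in Tumor Sox9 alone, and F9 carries 5 and 6 peaks in the Prog-like lists, 3 in Tumor Sox9 and none in the EpCAM-high lists.

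F5 (chromosome 1, 164151835 to 164220277, plus strand), the longest of the 10 genes at 68.4 kb, held peaks in every list: 7 in EpCAM-high Sox9, 6 in EpCAM-high CK19, 6 in Tumor Sox9 and 3 in each Prog-like list. Its start was covered by peaks of EpCAM-high CK19, EpCAM-high Sox9 and Tumor Sox9, with summits 135, 15 and 16 bp after the start. The non-coding RNA gene Gm16548 also overlaps these start peaks. Prog-like Sox9 had a weak peak there (percentile 0.576) that began 13 bp after the start. The main Prog-like peaks lay further in, with summits 1187 bp (CK19) and 1156 bp (Sox9) after the start at percentiles 75.0 and 71.5 of their lists, and the CK19 one began 925 bp from the start. They overlapped a second, weaker peak of Tumor Sox9 there (164152462 to 164152917, percentile 27.5). So F5 counted as having a gene-start peak in all 5 lists, but at shifted positions in the Prog-like lists. The EpCAM-high Sox9 peak at 164144869 to 164145054 (percentile 17.3) overlapped the neighbouring gene Selp and was not kept at equal length. At that length Tumor Sox9 held 6 peaks at the F5 locus, each EpCAM-high list 5 and each Prog-like list 2.

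Inside F5, a peak at about 32.9 kb from the start was held by all 5 lists, with summits within 48 bp of each other (164184672 to 164184720). It ranked at percentile 36.0 in Tumor Sox9, 63.3 in EpCAM-high Sox9, 66.8 in EpCAM-high CK19, and 66.9 (Sox9) and 74.8 (CK19) in the Prog-like lists. A peak about 56.8 kb from the start (summits 164208566 to 164208621) was held by both EpCAM-high lists and Tumor Sox9 and by neither Prog-like list. The strongest F5 peak of Tumor Sox9 (164162501 to 164163499, percentile 88.7) was in no other list. It had the highest rank of all Tumor Sox9 peaks at the 10 loci. Both EpCAM-high lists shared a peak beyond the end of the gene (summits 164223271 and 164223283) that no other list held.

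Proc (chromosome 18, 32123126 to 32139570) encodes protein C, the anticoagulant member, and held 5 peaks in each EpCAM-high list, 4 in Tumor Sox9 and 2 in each Prog-like list. The gene end at 32139570 was covered in both EpCAM-high lists and Tumor Sox9, with summits at 32139629 (EpCAM-high CK19), 32139687 (EpCAM-high Sox9) and 32139612 (Tumor Sox9), and percentiles of 72.3, 80.0 and 78.3. The Prog-like lists had no peak within 7839 bp (CK19) and 7841 bp (Sox9) of that end. This pattern, both EpCAM-high lists and Tumor Sox9 but neither Prog-like list, was that of 2.07% of all genes. A peak 8062 to 8108 bp beyond that end (summits 32147632 to 32147678) was in all 5 lists. The Prog-like lists shared a peak inside the gene (summits 32127704 and 32127708) that the others lacked. Every Tumor Sox9 peak at Proc overlapped a peak of both EpCAM-high lists, and 3 of these 4 regions were in no Prog-like list.

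Plg (chromosome 17, 12378609 to 12419384), the gene of plasminogen, held 4 peaks in Tumor Sox9, 3 in EpCAM-high CK19, 2 in each Prog-like list and 1 in EpCAM-high Sox9. The gene end at 12378609 was covered in Tumor Sox9 alone, by a peak from 12377834 to 12379024 at percentile 54.9. At that end the nearest peaks of the other lists lay 4581 bp away in EpCAM-high CK19, 4598 bp in EpCAM-high Sox9, 6130 bp in Prog-like Sox9 and 6153 bp in Prog-like CK19. Prog-like Sox9 had a peak 126 bp beyond the opposite end (12419510 to 12419763), between Plg and the neighbouring transporter gene Slc22a3. It counted as a gene-end peak of Plg by the rule used, ranked at percentile 23.2 and was not kept at equal length. Tumor Sox9 held 2 further peaks inside the gene near the covered end (12380219 to 12380702 and 12385356 to 12385696) that no other list held. A peak 6351 to 6399 bp before 12378609 was shared by Tumor Sox9 and both Prog-like lists.

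**Figure D4:**
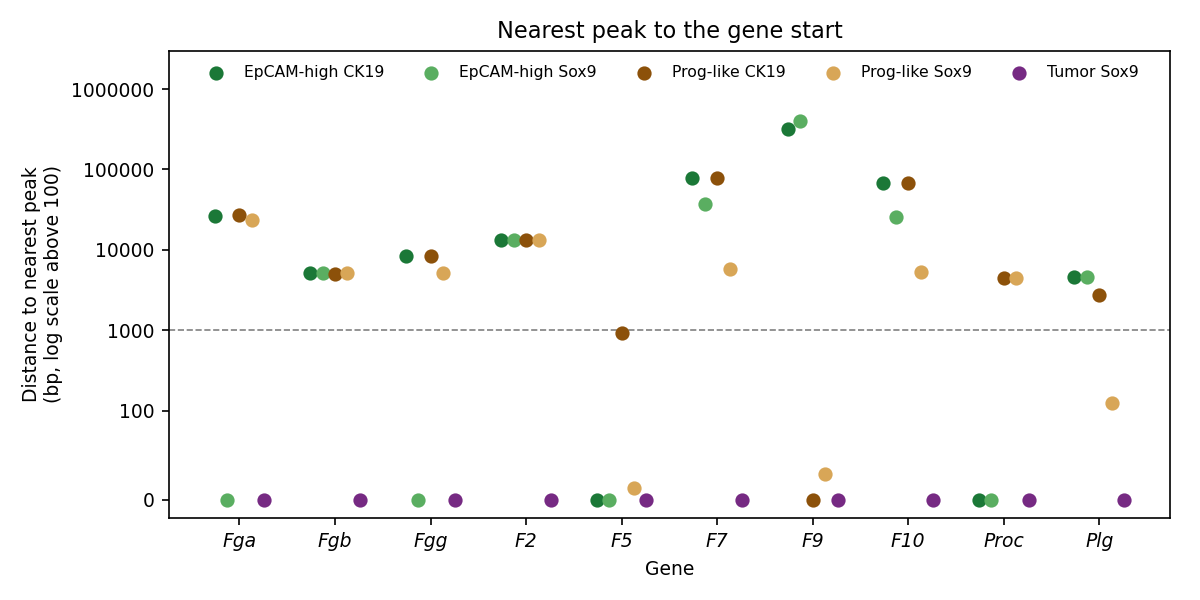
Distance in bp from the annotated gene start (for Plg and Proc the nearer gene end) to the nearest peak of each list, on an axis that is logarithmic above 100; 0 means that a peak covers the position and the dashed line marks 1000 bp. Tumor Sox9 sits at 0 for all 10 genes, and the EpCAM-high lists reach 321887 and 404146 bp at F9.

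Counted once each over the 7 separate stretches of DNA that the 10 loci form (394 kb in all), overlapping peaks of the 5 lists merged into 50 regions. Tumor Sox9 held 29 of them, EpCAM-high Sox9 19, Prog-like Sox9 and EpCAM-high CK19 16 each, and Prog-like CK19 14. Of the 29 regions of Tumor Sox9, 14 were in no other list (48.3%), where 29.9% of its regions across the genome were in no other list. The corresponding shares were 18.8% against 8.73% for Prog-like Sox9 and 14.3% against 13.8% for Prog-like CK19. They were 15.8% against 22.6% for EpCAM-high Sox9 and 25.0% against 24.7% for EpCAM-high CK19. The share of Prog-like Sox9 rests on 3 of 16 regions, at Fgg, F7 and Plg. Their peaks ranked at percentiles 28.9, 1.29 and 23.2 of that list, and none was kept at equal length. The 14 regions of Tumor Sox9 alone lay at the fibrinogen genes, F2, F5, F7, F9, F10 and Plg, and none lay at Proc.

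Regions held by both Prog-like lists and no other numbered 5 of the 50 (10%, against 25.8% of the 138775 regions of the genome), 4 of them in F9 and 1 in Proc. Regions held by EpCAM-high Sox9 and Tumor Sox9 alone numbered 4 (8%, against 1.67%), 3 of them in the fibrinogen cluster and 1 in F5. Regions held by both Prog-like lists and Tumor Sox9 numbered 3 (6%, against 0.827%), at the F9 start, in F5 and beside Plg. Regions in all 5 lists numbered 3 (6%, against 9.75%), at Plrg1 beside Fgb, inside F5 and beyond Proc. For pairs of lists, EpCAM-high Sox9 and Tumor Sox9 shared 12 of the 37 regions of either (32.4%, against 33.1% across the genome) and EpCAM-high CK19 and Tumor Sox9 shared 8 of 38 (21.1%, against 31.2%). The EpCAM-high lists shared 12 of 23 (52.2%, against 51.9%) and the Prog-like lists 12 of 18 (66.7%, against 74.5%). These are descriptions of single lists, and regions of 1 locus are not independent.

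Of 33 other genes of coagulation and fibrinolysis, 23 had a gene-start peak in Tumor Sox9 (69.7%, against 52.0% of all genes). In the other lists the shares lay below those of all genes. They were 16 in EpCAM-high Sox9 (48.5%, against 59.0%) and 14 in EpCAM-high CK19 (42.4%, against 59.0%). Each Prog-like list had 15 (45.5%, against 57.6% for CK19 and 54.6% for Sox9). A gene-start peak in an EpCAM-high list or Tumor Sox9 and in no Prog-like list was found at 12 genes, a pattern whose all-gene share was not computed. Of these, 8 had it in Tumor Sox9 alone, as did 1.02% of all genes. Those 8 were Klkb1 (prekallikrein), the kininogen genes Kng1 and Kng2, Hrg (histidine-rich glycoprotein), Proz, and the genes of the inhibitors antithrombin (Serpinc1), heparin cofactor II (Serpind1) and antiplasmin (Serpinf2). Their locus peaks in Tumor Sox9 were 5, 1, 3, 1, 2, 4, 3 and 3. The other 4 were F13b, which encodes the carrier subunit of factor XIII, Habp2, Cpb2 and Serpina10. F13b and Habp2 had the gene-start peak in both EpCAM-high lists and Tumor Sox9, and Cpb2 and Serpina10 in EpCAM-high Sox9 and Tumor Sox9.

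Of the other genes of these 33, 3 had a gene-start peak in Prog-like lists alone: Vwf, which encodes the platelet-binding von Willebrand factor, Procr, the protein C receptor gene, and Tfpi, which encodes the inhibitor of tissue factor. These 3 were named for this pattern, whose all-gene share was not computed. Thbd, another of the 33, had a gene-start peak in both Prog-like and both EpCAM-high lists but not in Tumor Sox9, also at equal length. Vwf held 11 (CK19) and 12 (Sox9) peaks at its locus for Prog-like, 5 and 7 for EpCAM-high and 4 in Tumor Sox9. Procr held 3 in each Prog-like list and 0 elsewhere, and Tfpi held 8 and 10, then 5 and 3, and 4 in the same order. At equal length Vwf kept its gene-start peak in both Prog-like lists, Tfpi in Prog-like CK19 and Procr in neither. Of 8 endothelial markers, a list that also holds Vwf, 4 had a gene-start peak in Prog-like Sox9 (all genes 54.6%). Its CK19 counterpart had 5 (all genes 57.6%). The Sox9 count thus lay below its all-gene share and the CK19 count above it, both close to it. EpCAM-high CK19 had 1 (all genes 59.0%), and Tumor Sox9 (52.0%) and EpCAM-high Sox9 (59.0%) had 0. At equal length 2 had one in each Prog-like list, below the all-gene shares of 46.3% (Sox9) and 48.3% (CK19). The 3 other lists then had 0. The part of such cells was not tested. A gene-start peak in all 5 lists was found at 11 of the 33 genes, against 45.5% of all genes. Among them were the tissue factor gene F3 and the vitamin K cycle genes Ggcx and Vkorc1. In no list was one found at 6, among them F8, F11 and F12.

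**Figure D5:**
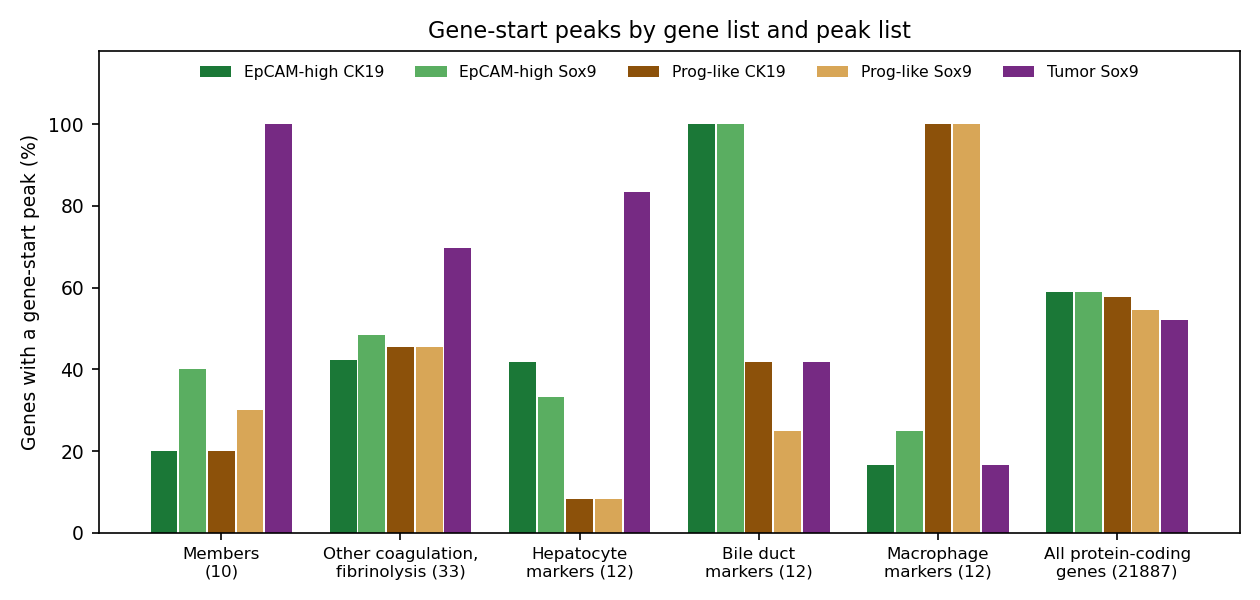
Percentage of genes with a gene-start peak (y axis) for 5 gene lists and all protein-coding genes (x axis, number of genes in brackets), with 1 bar for each peak list. Tumor Sox9 stands highest of the 5 lists for the 10 members, the 33 other coagulation genes and the hepatocyte markers, and lowest for all protein-coding genes.

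Marker genes were read in the same way to place the lists. Of 12 hepatocyte markers, none of them among the 10 genes, 10 had a gene-start peak in Tumor Sox9 (83.3%, against 52.0% of all genes). EpCAM-high Sox9 had 4 (33.3%) and EpCAM-high CK19 had 5 (41.7%), below the 59.0% of all genes in each. Each Prog-like list had 1 (8.33%, against 57.6% for CK19 and 54.6% for Sox9). The exceptions in Tumor Sox9 were Cyp2e1 and Serpina1a, which held no locus peak in any list. Bile duct markers had a gene-start peak at 12 of 12 genes in both EpCAM-high lists. They had one at 5 in Tumor Sox9 (41.7%), and at 5 (CK19, 41.7%) and 3 (Sox9, 25.0%) in the Prog-like lists, below the all-gene shares. At equal length the Prog-like lists had one at 0 of the bile duct markers and Tumor Sox9 still at 5. Of 12 genes of transcription factors that drive hepatocyte genes, 12 had a gene-start peak in each EpCAM-high list, 11 in Tumor Sox9, and 6 (Sox9) and 7 (CK19) in the Prog-like lists. At equal length these numbers were 10 in EpCAM-high CK19, 11 in EpCAM-high Sox9, 11 in Tumor Sox9 and 4 in each Prog-like list. Tumor Sox9 thus held the most hepatocyte markers but not the most of these regulator genes. Of 6 stellate markers, 4 had one in EpCAM-high Sox9, 3 in EpCAM-high CK19 and 2 in each other list, and at equal length these were 2, 3, 2 in Tumor Sox9 and 0 in each Prog-like list. Of 6 platelet markers, Gp9 alone had one in EpCAM-high Sox9 (lost at equal length) and Pf4 alone in each Prog-like list (kept at equal length). The other lists had 0. None of 4 lymphocyte markers had one in any list. The platelet and lymphocyte counts lay below the all-gene shares in every list.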

How the data were processed

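Each of the 5 peak lists was used as the authors deposited it, in the narrowPeak layout of MACS2. Bowtie 1.1.2, MACS2, HOMER, deepTools and mm10 are named, without roles, per the submitters' processing notes. Pooling of libraries, the transposase shift, duplicate removal and other tool versions were not given in the sources used here. The deposited fold enrichment (a ratio), −log10 p and −log10 q values per peak come from the authors, and each served to describe, rank or filter peaks of its own list alone. The lowest −log10 q was 1.30 to 1.32 in the 5 lists.

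Gene positions and promoter sequences came from RefSeq GRCm38.p6 tables. Annotated starts were given for 17492 of the 21887 protein-coding genes (79.9%), and either gene end was used for the rest. Exons and introns were not separated. All members were named, with neighbours whose ends lay within 1000 bp of a peak, and other coagulation genes by their pattern. The members and lists were chosen with earlier results of these data known. Trac, a lymphocyte marker, matched no annotated gene. One planned motif is not reported here. Overlaps were computed in Python 3.11.15 with pandas 2.3.3 and tested on simulated data. Counts were repeated with lists of one length, stronger peaks only (−log10 q at least 5), other flanks and start windows, and a 50% overlap. Samples were not compared, since each condition had 1 list.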

Additional observations from a re-analysis of the deposited data

How the results depend on the processing

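Tumor Sox9 had the most genes with a gene-start peak (10) under every setting tried for that count, and the most regions at the loci. It also had the most genes with a locus peak, except with flanks of 50 kb, where Prog-like Sox9 equalled it at 10. Equal list length lowered the regions at the loci to 12 (EpCAM-high Sox9), 10 (EpCAM-high CK19), 9 (Prog-like Sox9) and 9 (Prog-like CK19), and the genes with a gene-start peak in Prog-like Sox9 to 1. It lowered the regions shared by the EpCAM-high lists to 6 and by the Prog-like lists to 7. Without flanks, regions fell to 8 (EpCAM-high CK19), 10 (EpCAM-high Sox9) and 10 (Prog-like Sox9), and genes with a locus peak in these lists to 3, 4 and 4. With flanks of 50 kb, regions rose to 29 and 34 (EpCAM-high CK19 and Sox9) and 31 and 33 (Prog-like CK19 and Sox9), and genes with a locus peak in EpCAM-high CK19 to 8. These changes follow from fewer peaks or other window widths. Gene by gene, 47 of 50 gene-start values were unchanged at equal length, 3 were lost (F5 in EpCAM-high Sox9, F9 and Plg in Prog-like Sox9), and all 50 were unchanged with a −log10 q of 5 or more or a window of 2500 bp. An overlap of 50% of either peak left the 12 regions shared by each of the 3 pairs tried unchanged in number (EpCAM-high Sox9 with Tumor Sox9, the EpCAM-high pair and the Prog-like pair). No paired analysis was possible because each condition had 1 peak list and the lists carry no replicate numbers. Read depth is unknown, so whether a missing peak goes with depth was not tested, and strand was not given for Plg and Proc.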
